A study of Mus musculus with 18 samples.

Results

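The nuclear genes for the respiratory chain and the ATP synthase were followed in whole mammary glands of virgin female mice. A gene was taken as a member if the array held a probe set annotated to a single gene symbol that begins with Nduf or Uqcr, that is Sdha, Sdhb, Sdhc or Sdhd, that begins with Cox4, Cox5, Cox6, Cox7 or Cox8, or that begins with Atp5. The muscle genes Cox7a1 and Cox8b were kept apart and are given only for comparison. This rule took 88 genes with 177 probe sets, of 18193 genes with 34945 such probe sets in all. By complex there were 34 genes of complex I, 4 of complex II, 8 of complex III, 16 of complex IV and 17 of complex V, with 8 assembly factors of complex I (Ndufaf genes) and Ndufa4l2, a paralog of the complex IV subunit Ndufa4. Another 10 probe sets carried a member's symbol together with other symbols and were left out. Of the members, 37 were measured by 1 probe set and none by more than 6.

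Respiratory chain complexes pass electrons from NADH (complex I) or succinate (complex II) through ubiquinone and complex III to cytochrome c and then, in complex IV, to oxygen, and complex V uses the proton gradient to make ATP. Most subunits are made from nuclear genes in every tissue, while a few subunits of complex IV have separate genes for heart and skeletal muscle. Mammary gland is a fat pad with epithelial ducts, and a gland dissected whole can take in a lymph node, skeletal muscle of the body wall and brown fat. The amount of respiratory chain per cell is known to be high in muscle and brown fat and low in white fat.

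Ron (gene symbol Mst1r) is a receptor tyrosine kinase. Glands from RonTK-/- mice, in which the part of the gene that encodes the tyrosine kinase domain is deleted, were set against glands from RonTK+/+ mice at 5, 6 and 7 weeks of age, with no treatment named for any group. Each of the 6 groups had 3 arrays, 18 in all. The labels do not say whether the 3 arrays came from separate mice, so p-values measure the spread between these samples, which may be technical. The labels name no promoter or cell type that limits the deletion, and RNA was taken from the gland as a whole. In such bulk RNA, fewer cells of a type and less RNA per cell cannot be told apart. The deposited values are ratios on a linear scale, near 1 at the RonTK+/+ median of most probe sets, so a gene's ratio can be compared between arrays but not with the ratio of another gene as a level. Differences and slopes below are on the log2 scale, where 0 stands for a ratio of 1.

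Arrays of a single group differed widely in transcripts of other tissues. A list of 22 genes of skeletal muscle had a mean log2 ratio between -5.59 and -3.68 in 8 arrays and between 0.01 and 0.60 in the other 10. The low arrays were array 2 of every RonTK+/+ group, array 3 of the 6-week RonTK+/+ group, array 3 of the 5-week RonTK-/- group and the whole 6-week RonTK-/- group. Lymphocyte transcripts ran the other way. The mean of 10 B lymphocyte genes lay between 0.06 and 0.80 in the 8 arrays low in muscle and between -1.85 and -1.73 in 8 of the other 10, while array 1 of both 5-week groups showed both muscle and lymphocyte transcripts, with B lymphocyte means of 0.09 (RonTK+/+) and -0.36 (RonTK-/-). The mean of 10 brown adipocyte genes ranged from -1.23 to 0.96. Epithelial transcripts varied less, with a mean of 14 luminal genes between -0.70 and 0.57. Mst1r itself ran from 0.808 to 1.4 in RonTK+/+ and from 0.74 to 2.1 in RonTK-/- arrays, and since the sources used here do not say whether its probe set lies in the deleted part, it does not check the labels.

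Cox6a2, the heart and skeletal muscle form of subunit 6a of complex IV, was the member that differed most between arrays. Its ratios in RonTK+/+ glands were 1, 0.0497 and 1.32 at 5 weeks, 1.72, 0.0533 and 0.0658 a week later, and 1.42, 0.0419 and 1.3 in the oldest glands. Those in RonTK-/- glands were 1.5, 1.84 and 0.055, then 0.0816, 0.0523 and 0.0489, and then 1.53, 1.23 and 1.17 at the same ages. The 8 arrays with a ratio under 0.1 were the same 8 that were low in the muscle list, and no array fell between 0.0816 and 1. Both genotypes had arrays in each range, and in 4 of the 6 groups the 3 arrays were split between them. Its SD within groups was 2.29 on the log2 scale, above that of 99.7% of all genes.

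Cox6a1, the form of the same subunit made in most tissues, stayed near 1 in every array. At 5 weeks the RonTK+/+ ratios were 1.14, 0.923 and 0.961 and the RonTK-/- ratios 1.01, 0.954 and 1.11. At 6 weeks they were 1.04, 1 and 1.14 for RonTK+/+ beside 1.17, 1.09 and 0.952. At 7 weeks they were 0.867, 0.91 and 1.17 beside 1.07, 1.25 and 1.08. The arrays lowest in Cox6a2 were not set apart in Cox6a1: its log2 ratio ran from -0.14 to 0.22 in the 8 arrays low in muscle and from -0.21 to 0.32 in the other 10.

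**Figure D1:**
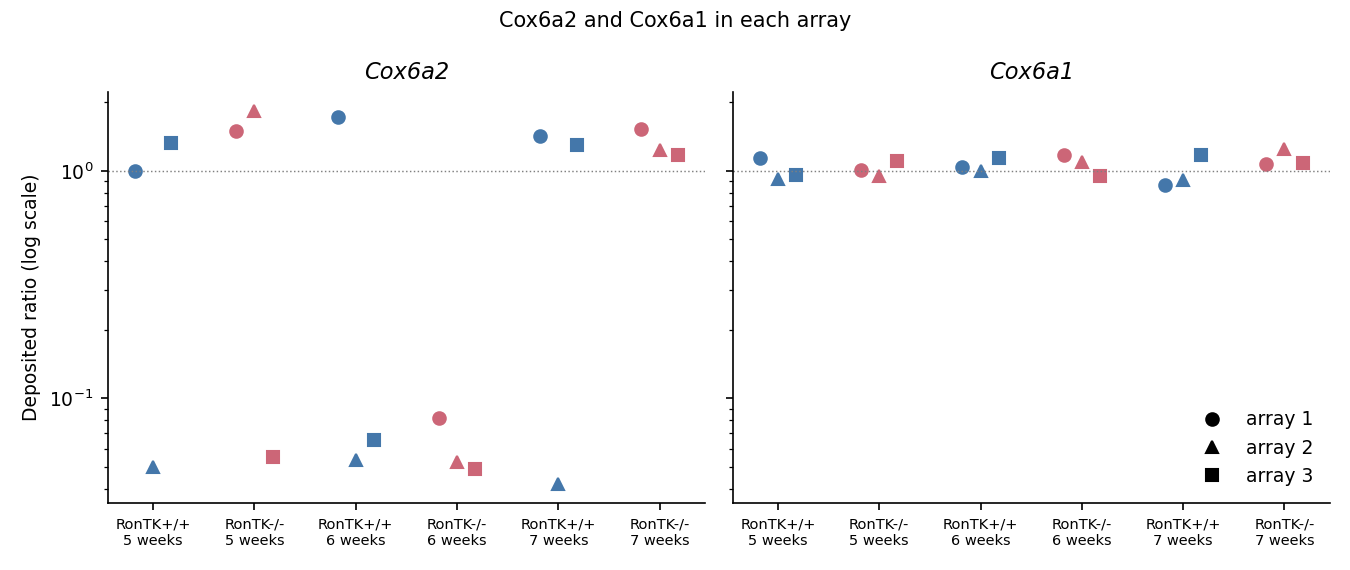
Deposited ratio of Cox6a2 (left) and Cox6a1 (right) in each of the 18 arrays, on a log axis, by genotype and age; the symbol gives the array number and the dotted line a ratio of 1. Cox6a2 lies either under 0.1 or at 1 and above, in arrays of both genotypes, while Cox6a1 stays between 0.867 and 1.25.

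The 2 muscle genes that the rule left out were less sharply divided. Cox7a1, the heart and skeletal muscle form of subunit 7a, had ratios from 0.129 to 0.715 in the 8 arrays low in muscle and from 1 to 1.5 in the others. Cox8b, the form of subunit 8 made in heart, skeletal muscle and brown fat, ran from 0.354 to 1.04 in the first and from 1 to 1.51 in the second. Array 3 of the 5-week RonTK-/- group was low in Cox6a2 (0.055) but had 0.715 for Cox7a1 and 1.04 for Cox8b, and its brown adipocyte mean was 0.38.

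The effect of the kinase deletion was tested first as RonTK-/- minus RonTK+/+ averaged over the 3 ages. None of the 88 members was called by limma at an adjusted p under 0.05 (Benjamini-Hochberg over all genes), beside 11 of 18193 genes (0.0605%). An unadjusted p under 0.05 was seen in 0 members and in 3.77% of all genes. The differences were small: 82 of 88 lay above 0, with a median of 0.068 and a range from -0.07 for Cox6b2 to 0.17 for Ndufaf4, against a median of 0.003 over all genes. The medians were 0.078 in complex I, 0.057 in complex II, 0.081 in complex III, 0.040 in complex IV, 0.046 in complex V and 0.110 in the assembly factors. With 1 array left out they ran from 0.01 to 0.13 in complex I, from -0.02 to 0.11 in complex II, from 0 to 0.14 in complex III, from 0 to 0.06 in complex IV and from 0.01 to 0.11 in complex V. The lowest of these were without array 2 of the RonTK+/+ group at 7 weeks, or at 5 weeks for complex V. The highest and lowest members were Ndufb10 (0.16 ± 0.20, SE) and Ndufb4 (0.00) in complex I, Sdhb (0.08) and Sdha (-0.01) in complex II, Uqcr11 (0.17) and Uqcrq (0.04) in complex III, Cox6a2 (0.131 ± 1.001, SE) and Cox6b2 in complex IV, and Atp5o (0.11) and Atp5g2 (0.00) in complex V. The SE of Cox6a2 was many times its difference, and leaving out 1 array moved that difference between -0.43 (without array 2 of the 7-week RonTK+/+ group) and 0.68 (without array 3 of the 5-week RonTK-/- group).

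In each complex the member with the smallest unadjusted p is given by array. Ndufb3, an accessory subunit of complex I, had ratios of 1, 0.789 and 1.04 in RonTK+/+ and 1.12, 1.08 and 1.06 in RonTK-/- arrays at 5 weeks, 1.1, 0.911 and 1.14 against 1.04, 1.1 and 0.93 at 6 weeks, and 0.965, 0.787 and 1.13 against 1.11, 1.32 and 1 at 7 weeks. The genotypes overlapped at 6 and 7 weeks and lay apart at 5 weeks, and the difference was 0.146 ± 0.083 (SE, adjusted p = 1 by limma). Sdhc, a membrane anchor of succinate dehydrogenase, had 1.01, 0.81 and 1.04 against 1.16, 1.17 and 0.997 at 5 weeks, 1.27, 0.926 and 0.986 against 0.967, 0.995 and 0.848 at 6 weeks, and 1.02, 0.76 and 1.26 against 1.09, 1.21 and 1.05 at 7 weeks. Its genotypes overlapped at each age, with a difference of 0.075 ± 0.096 (SE).

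Uqcr11, a small subunit of complex III, had ratios of 1.05, 0.657 and 1 in RonTK+/+ and 1.14, 1.18 and 1.02 in RonTK-/- arrays at 5 weeks, 1.26, 0.783 and 1 against 0.999, 0.956 and 0.733 at 6 weeks, and 1.04, 0.653 and 1.28 against 1.16, 1.38 and 1.11 at 7 weeks. Its low values, 0.653 to 0.783, were in array 2 of every RonTK+/+ group and array 3 of the 6-week RonTK-/- group, all low in muscle and brown fat transcripts, and the difference was 0.170 ± 0.140 (SE). In complex IV the member was Cox6a1, given above, with 0.083 ± 0.070 (SE). Atp5c1, the gamma subunit of the ATP synthase, had 0.946, 1.04 and 0.969 against 0.99, 0.972 and 0.993 at 5 weeks, 1.07, 1.03 and 0.999 against 0.99, 0.968 and 0.983 at 6 weeks, and 0.945, 0.875 and 1.05 against 1.07, 1.22 and 1 at 7 weeks. Its genotypes lay apart only at 6 weeks, where the RonTK-/- arrays were lower, and the difference over ages was 0.042 ± 0.043 (SE).

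At single ages the members kept together but did not keep a direction. At 5 weeks, 82 of 88 differences lay above 0 with a median of 0.173 (0.008 over all genes). At 6 weeks, 81 lay below 0 with a median of -0.120 (-0.009 over all genes), and at 7 weeks 86 lay above 0 with a median of 0.160 (0.017 over all genes). The sequence above 0, below 0, above 0 was seen in 77 of 88 members and in 4058 of 18193 genes. The same sign at all 3 ages was seen in 4 of 88 members and in 3135 of 18193 genes. The skeletal muscle list had the same order, with medians of 0.374, -2.13 and 1.875, as did the brown adipocyte list, with 0.315, -0.399 and 0.601. The B lymphocyte list had the opposite order, -0.252, 0.531 and -0.450. What part these lists have in the members' differences was not tested here, and the arrays low in muscle numbered 1, 2 and 1 in the RonTK+/+ groups and 1, 3 and 0 in the RonTK-/- groups, in order of age.

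No member was called by limma at any age. At 5 weeks the background was 2 of 18193 genes (0.011%), and 0 members had an unadjusted p under 0.05, beside 3.42% of all genes. At 6 weeks it was 3 genes (0.0165%). There 1 member (1.14%) had an unadjusted p under 0.05, beside 6.15% of all genes: Cox4i2, a form of subunit 4 known from lung (-0.20 ± 0.06, SE, adjusted p = 0.774). At 7 weeks the background was 6 genes (0.033%), and 2 members (2.27%) had an unadjusted p under 0.05, beside 9.75% of all genes. They were Ndufa4l2 (0.211 ± 0.070, SE, adjusted p = 0.418) and Atp5c1 (0.198 ± 0.075, SE, adjusted p = 0.441). With limma's array weights, whose fit stopped before it converged, 16, 1 and 6 members were called at 5, 6 and 7 weeks, and without array 3 of the 7-week RonTK+/+ group 2 were called at that age. Calls over all genes were not counted in these alternatives, so the counts have no background beside them.

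Complex IV had the median nearest 0 at 5 and 7 weeks, and the assembly factors had it at 6 weeks. Its medians were 0.075, -0.093 and 0.084 at 5, 6 and 7 weeks. Those of complex I were 0.196, -0.160 and 0.190, of complex II 0.214, -0.147 and 0.103, of complex III 0.234, -0.155 and 0.154, and of complex V 0.173, -0.110 and 0.106. The assembly factors had 0.208, -0.041 and 0.157. Whether the complexes differ from one another was not tested, and the median of complex IV takes in forms known from lung (Cox4i2) or testis (Cox6b2, Cox7b2 and Cox8c). In complex I the ends of the range were Ndufb4 (-0.05) and Ndufb10 (0.44) at 5 weeks, Ndufb10 (-0.29) and Ndufb1 (0.01) at 6 weeks, and Ndufs4 (0.05) and Ndufv3 (0.38) at 7 weeks. In complex II they were Sdha and Sdhb at each age, from 0.04 to 0.24, from -0.21 (Sdhb) to -0.10 (Sdha), and from 0.02 to 0.21. In complex III, Uqcrh (0.10) and Uqcr11 (0.33) were the ends at 5 weeks, Uqcrc1 (-0.20) and Uqcrq (-0.09) at 6 weeks, and Uqcrq (0.08) and Uqcr11 (0.35) at 7 weeks. In complex IV, Cox6a2 had 0.40, -1.62 and 1.61, each with an SE of 1.734, and the other ends were Cox6b2 (-0.17), Cox7c (0.27) and Cox7a2l (-0.03). In complex V, Atp5o (0.39) and Atp5g2 (-0.05) marked 5 weeks, Atp5g2 (-0.01) and Atp5o (-0.23) 6 weeks, and Atp5d (0.26) and Atp5g3 (0.00) 7 weeks.

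**Figure D2:**
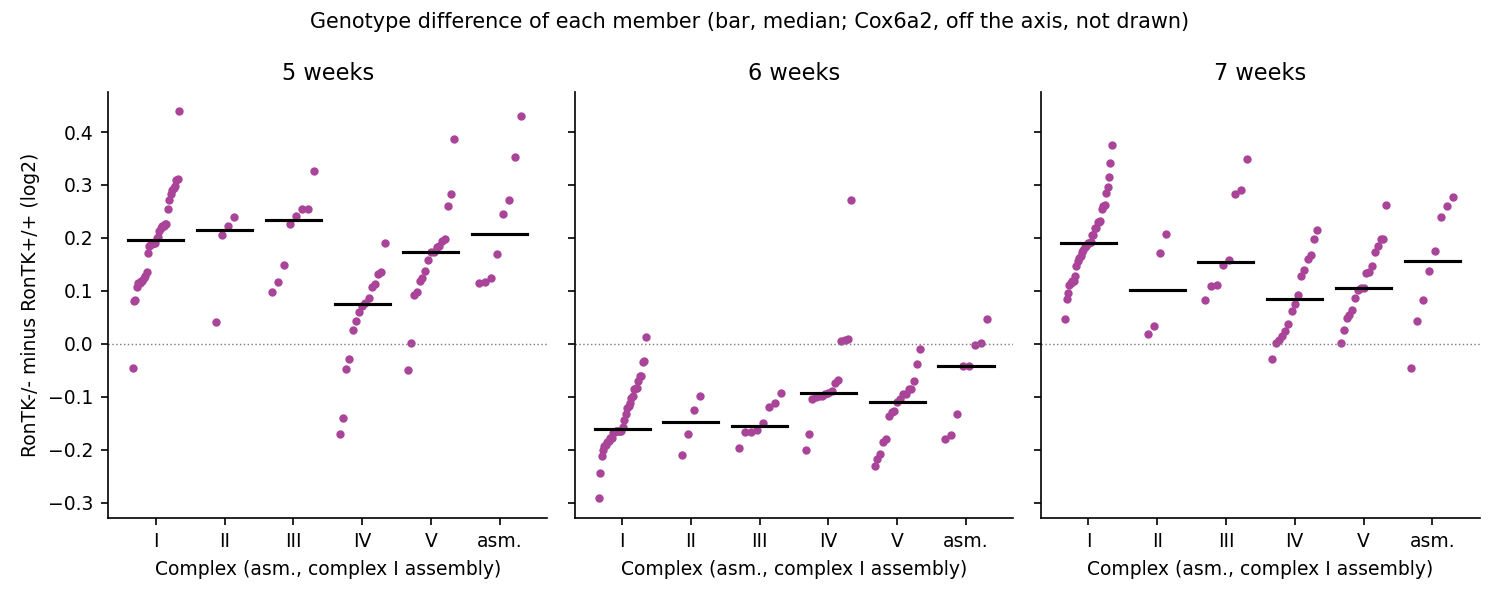
RonTK-/- minus RonTK+/+ (log2) of each member at 5, 6 and 7 weeks by complex, with the complex median as a bar; Cox6a2 counts in its median but is not drawn. Points lie mostly above 0 at 5 and 7 weeks and mostly below 0 at 6 weeks, and no member was called at any age.

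The interaction of genotype and age called 0 members and 0 of 18193 genes (0%) by limma. An unadjusted p under 0.05 was seen in 2 members (2.27%), Cox4i2 and Ndufa4l2 (adjusted p = 0.697 for both), beside 6.82% of all genes. With array weights, 9 members were called. With age in RonTK+/+ glands, 0 members were called beside 19 genes (0.104%). An unadjusted p under 0.05 was seen in 5 members (5.68%, beside 8.92% of all genes): Cox4i2, Ndufaf7, Ndufaf2, Ndufa4l2 and Cox6b2. From 5 to 7 weeks the medians were 0.059 in complex I, 0.052 in complex II, 0.086 in complex III, -0.018 in complex IV, 0.088 in complex V and 0.199 in the assembly factors, all 8 of which lay above 0. Ndufaf2 had the largest of these differences (0.378 ± 0.130, SE, adjusted p = 0.479) and Ndufaf7, a methyltransferase that acts in complex I assembly, had 0.196 ± 0.061 (SE, adjusted p = 0.375). With age in RonTK-/- glands, 0 members were called beside 7 genes (0.0385%). There 1 member (1.14%, beside 17.5% of all genes), Ndufaf8, had an unadjusted p under 0.05 (0.085 ± 0.094, SE, for 7 minus 5 weeks, adjusted p = 0.26). With array weights, 24 and 61 members were called with age in RonTK+/+ and RonTK-/- glands, and with the brown adipocyte list as a covariate 1 was called in RonTK+/+. For none of these alternatives were the calls over all genes counted, so whether the members stand out is not known.

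Because the arrays of a group differed so much, each gene was also fitted against the mean of the skeletal muscle list, with the 6 group means held in the model; the slope is the log2 change of the gene per log2 unit of the list. Of the 88 members, 71 had a positive slope that was called and 0 a negative one. Over all genes the called shares were 15.4% positive and 15.5% negative. The median slope was 0.065 over the members and 0.002 over all genes. Called members were 32 of 34 in complex I (median 0.078), 3 of 4 in complex II (0.064), 8 of 8 in complex III (0.077), 8 of 16 in complex IV (0.018), 15 of 17 in complex V (0.065) and 5 of 8 assembly factors (0.056). Those of complex IV not called were Cox6a1, Cox7c, Cox8a, Cox7a2l and forms known from lung (Cox4i2) or testis (Cox6b2, Cox7b2 and Cox8c). All of them count in its median.

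This slope rests on the gap between the 8 arrays low in muscle and the other 10. Within the 10 arrays, where the list spans 0.01 to 0.60, limma called 0 members. There 2 members had an unadjusted p under 0.05, beside 1130 of 18193 genes. The complex medians were negative: -0.255, -0.306, -0.400, -0.297 and -0.143 for complexes I to V. Within the 8 arrays limma also called 0 members, with medians of 0.102, 0.064, 0.095, 0.068 and 0.056. Here 4 members had an unadjusted p under 0.05, beside 1282 of 18193 genes. These fits had 4 and 2 residual degrees of freedom, and among the 10 arrays no gene at all was called and the members' SE ran from 0.238 to 0.712, against 5 genes called among the 8. They are too small to show whether the relation holds within either set: among the 10 arrays Cox6a2 and Atp5g1 had positive slopes (1.469 and 1.032) while the medians were negative. Since lymphocyte transcripts are low where muscle transcripts are high, the fit was repeated with the B lymphocyte list as a covariate: 6 members were then called, among them Cox6a2, Atp5j, Atp5e and Ndufaf5, and the complex medians were 0.070, 0.045, 0.066, 0.033 and 0.060. Calls over all genes were not counted in that fit. Other lists also followed the muscle list: 10 of 10 B lymphocyte and 13 of 13 T lymphocyte genes had called negative slopes, and 12 of 14 luminal, 7 of 8 basal and 4 of 10 brown adipocyte genes had called positive ones.

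Cox6a2 had by far the largest slope, 0.835 ± 0.033 (SE, adjusted p = 4.95e-10 by limma), and its 2 probe sets gave 0.84 and 0.83. It was the only member whose slope came near those of the muscle list itself, which ran from 0.52 for Mb (myoglobin) to 1.22 for Myot (myotilin). Cox6a1 had a slope of 0.009 ± 0.016 (SE, adjusted p = 0.728), and its 2 probe sets both gave 0.01. Outside the rule, Cox7a1 had 0.396 ± 0.051 (SE) and Cox8b 0.175 ± 0.034 (SE), both called. With the brown adipocyte list also in the fit, Cox7a1 had 0.202 ± 0.045 (SE), still called, and Cox8b 0.041 ± 0.029 (SE), not called. The slope of Cox6a2 was 0.765 with the B lymphocyte list, 0.892 with the brown adipocyte list, 1.469 within the 10 arrays (SE 0.326, adjusted p = 0.738) and 0.308 within the 8 (SE 0.061, adjusted p = 0.658).

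**Figure D3:**
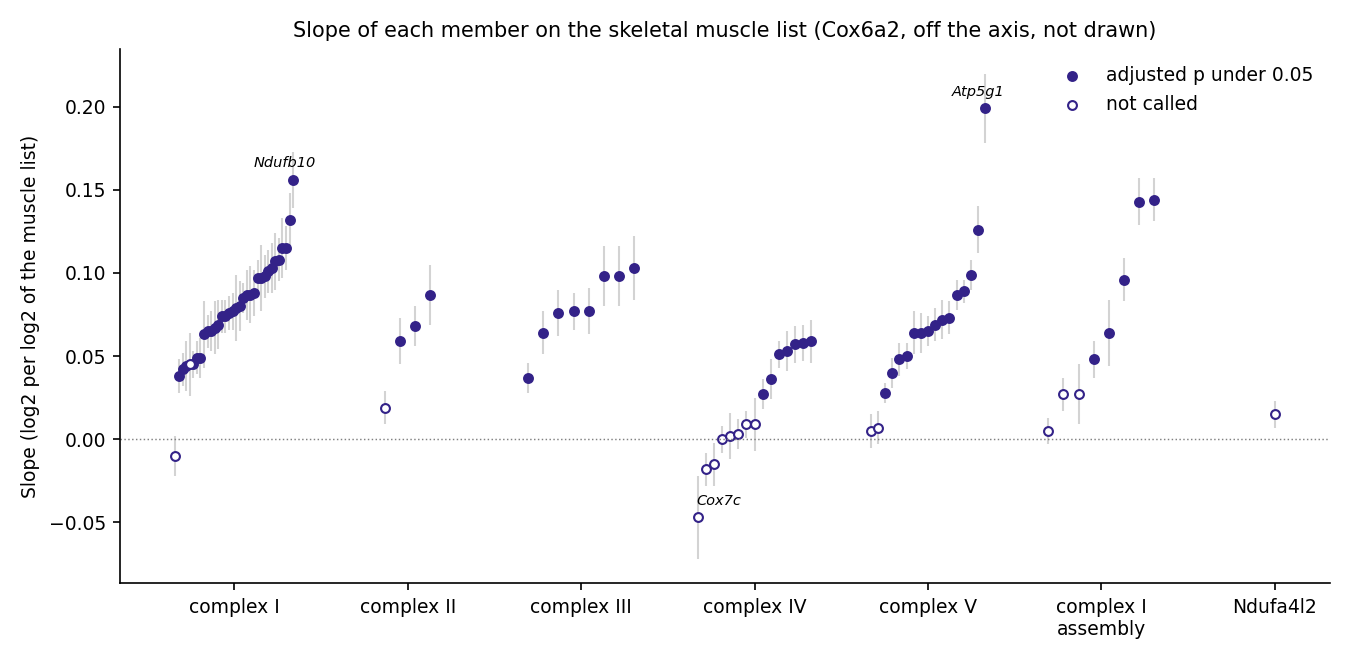
Slope of each member on the mean of the skeletal muscle list (log2 per log2, with SE), by complex and ordered within it; filled points have an adjusted p under 0.05. Complex IV holds 8 of the members that were not called, and Atp5g1 (0.199) and Ndufb10 (0.156) have the largest slopes drawn; Cox6a2 (0.835) is off the axis.

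After Cox6a2 the largest slopes were those of Atp5g1 (0.199 ± 0.021, SE), Ndufb10 (0.156 ± 0.017, SE), Ndufaf5 (0.144 ± 0.013, SE) and Ndufaf6 (0.143 ± 0.014, SE). Ndufb10 is an accessory subunit of complex I, and Ndufaf5 and Ndufaf6 act in the assembly of that complex. The smallest were Cox7c (-0.047 ± 0.025, SE), Cox7a2l (-0.018 ± 0.010, SE), Cox8a (-0.015 ± 0.013, SE), Ndufb4 (-0.010 ± 0.012, SE) and Cox8c (0.000 ± 0.008, SE), none of them called. In complex II the slopes ran from Sdha (0.019) to Sdhb (0.087), in complex III from Uqcrq (0.037) to Uqcrc1 (0.103), a core subunit, and in complex V from Atp5c1 (0.005) to Atp5g1. The value of Atp5c1 joins probe sets of opposite sign, 0.05 (called) and -0.04 (adjusted p = 0.0813). That of Uqcrq joins called slopes of 0.09 and 0.06 with uncalled ones of -0.01 and 0.

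Ndufb10 had ratios of 1, 0.525 and 1.14 in RonTK+/+ and 1.23, 1.35 and 0.892 in RonTK-/- arrays at 5 weeks, 1.39, 0.723 and 0.787 against 0.849, 0.779 and 0.653 at 6 weeks, and 1.07, 0.553 and 1.37 against 1.15, 1.34 and 1.07 at 7 weeks. All 8 arrays low in muscle were under 0.9 and the other 10 were at 1 or above. Atp5j, coupling factor 6 of the ATP synthase, was similar over a smaller range, from 0.749 to 0.889 in the 8 arrays and from 1 to 1.24 in the 10. Cox7c, a small subunit of complex IV, went the other way in part: its highest ratios, 1.57, 1.48 and 1.39, were in array 3 of the 6-week RonTK-/- group and array 2 of the 5-week and 6-week RonTK+/+ groups, while array 3 of the 5-week RonTK-/- group, also low in muscle, had 0.973.

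Slopes of catalytic, iron-sulfur and other named subunits lay on both sides of the members' median of 0.065. The slopes were 0.097 for Ndufv1, which binds NADH, and 0.103 for Ndufs1, an iron-sulfur subunit, in complex I. They were 0.087 for Sdhb, the iron-sulfur subunit of succinate dehydrogenase, 0.077 for Uqcrfs1, the Rieske protein of complex III, and 0.051 for Cox5a and 0.027 for Cox4i1 in complex IV. Atp5b, the catalytic beta subunit of the ATP synthase, had 0.040. All of these were called, but the call for Cox4i1 (adjusted p = 0.0457) was lost with the same sign in 19 alternatives, many of which left out 1 array, its sign turned in 2 and the call was kept in 8, and its single probe set was not called (adjusted p = 0.0565). Sdha, the flavoprotein of succinate dehydrogenase, was not called as a gene (0.019 ± 0.010, SE, adjusted p = 0.201), but its probe sets disagreed, with called slopes of 0.06 and 0.05 and uncalled ones of -0.01 and -0.03. In all, 136 of the 177 member probe sets had called positive slopes and 1, for Atp5g2, a called negative one.

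Among the members, the other pairs of related complex IV genes had small slopes in both. The muscle forms of subunits 7a and 8, Cox7a1 (0.396) and Cox8b (0.175), lie outside the rule and had called slopes in the same fit. Cox4i1 (0.027) stood beside Cox4i2 (0.009 ± 0.008, SE), and Cox6b1 (0.053) beside Cox6b2 (0.002 ± 0.014, SE), a form known from testis. Cox7a2 (0.036) stood beside Cox7a2l (-0.018), a related protein of supercomplexes, and Ndufa4 (0.057) beside Ndufa4l2 (0.015 ± 0.008, SE). The first of each pair was called and the second was not, but Cox4i1 lost its call in most alternatives, as given above, and Cox7a2 (adjusted p = 0.0304) lost it with the same sign in 8, turned sign in 2 and kept it in 19. Cox8a (-0.015) and the testis form Cox8c (0.000) were both uncalled, as was Cox7b2 (0.003), another testis form; its partner Cox7b was not analysed here. The signal of a probe set over background is unknown in these values, so that a flat ratio and a gene that is not expressed cannot be told apart. The differences between the slopes of paired isoforms were not tested.

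Subunit c of the ATP synthase, which forms the ring that turns in the membrane, is encoded by Atp5g1, Atp5g2 and Atp5g3, whose mature proteins are the same and whose import sequences differ. Their ratios differed in how they followed the arrays. Atp5g1 had 1, 0.598 and 1.19 in RonTK+/+ and 1.23, 1.77 and 0.479 in RonTK-/- arrays at 5 weeks, 1.34, 0.51 and 0.651 against 0.712, 0.616 and 0.657 at 6 weeks, and 1.47, 0.755 and 1.23 against 1.21, 1.22 and 1.11 at 7 weeks. All 8 arrays low in muscle were at 0.755 or below and the other 10 at 1 or above. Atp5g2 ran from 0.912 to 1.16 and Atp5g3 from 0.925 to 1.13 over all 18 arrays. The slopes were 0.199 for Atp5g1, 0.007 ± 0.010 (SE, not called) for Atp5g2 and 0.028 ± 0.006 (SE, called) for Atp5g3. The 2 probe sets of Atp5g1 gave 0.28 and 0.12, and the 3 of Atp5g2 gave 0.04, 0.03 and -0.05, all 3 called, so that its mean joins probe sets of opposite sign.

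The 250 bases before the start of each subunit c gene are shown because these genes share a protein and not a pattern, with Cox6a1 beside them as the flat partner of Cox6a2. They are from RefSeq (GRCm38.p6), 5′ to 3′, with matches to any of 3 motifs in capitals, and Cox6a2 has no entry in the table used.
Cox6a1 (chr5:115348959-115349208, minus strand): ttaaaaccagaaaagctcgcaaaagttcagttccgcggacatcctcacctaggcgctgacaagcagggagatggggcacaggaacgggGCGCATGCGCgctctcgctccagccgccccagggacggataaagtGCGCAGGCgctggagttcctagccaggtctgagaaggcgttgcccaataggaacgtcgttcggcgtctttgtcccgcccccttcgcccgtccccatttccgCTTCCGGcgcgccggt
Atp5g1 (chr11:96075632-96075881, minus strand): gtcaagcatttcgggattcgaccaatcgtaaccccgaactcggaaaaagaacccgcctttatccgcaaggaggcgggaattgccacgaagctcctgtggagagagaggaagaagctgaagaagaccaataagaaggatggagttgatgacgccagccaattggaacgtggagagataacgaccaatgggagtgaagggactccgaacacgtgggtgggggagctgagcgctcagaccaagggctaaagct
Atp5g2 (chr15:102671048-102671297, minus strand): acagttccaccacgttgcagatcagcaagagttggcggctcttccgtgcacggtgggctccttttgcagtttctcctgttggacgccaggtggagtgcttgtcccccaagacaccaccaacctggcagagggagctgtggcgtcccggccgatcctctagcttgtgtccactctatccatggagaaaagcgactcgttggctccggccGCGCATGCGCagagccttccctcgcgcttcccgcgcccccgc
Atp5g3 (chr2:73911327-73911576, minus strand): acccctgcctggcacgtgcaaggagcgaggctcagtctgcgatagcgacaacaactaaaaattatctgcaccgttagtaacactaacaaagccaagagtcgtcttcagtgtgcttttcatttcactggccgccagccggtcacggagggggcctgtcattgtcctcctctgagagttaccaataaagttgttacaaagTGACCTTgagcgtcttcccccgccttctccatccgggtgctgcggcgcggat
The motifs, searched on both strands, were GCGCANGC (a core of the NRF1 site, which overlaps itself on the opposite strand), CCGGAAG (an ETS site, as bound by GABP) and AAGGTCA (a core of the ERR site). These factors are known as regulators of nuclear genes for mitochondria. Cox6a1 had 3 matches to the first and 1 to the second, Atp5g2 had 2 to the first, and Atp5g3 had 1 to the third and, after the start and so not shown, 1 to the first. Atp5g1 had no match, which says only that these letters are not in this window. Windows of 250 bases before and 50 after the start were available for 72 of the 88 members, with 77 windows. The NRF1 core was in 31.2% of these and in 9.95% of all 32851 windows, the ETS site in 24.7% and 8.86%, and the ERR core in 10.4% and 4.72%. A match is a description of the sequence and not a binding site.

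The 5 complexes moved together from array to array. The median over the 88 members was lowest in array 2 of the 7-week RonTK+/+ group (-0.37, with 84 members below 0), array 2 of the 5-week RonTK+/+ group (-0.33, 79 below 0) and array 3 of the 6-week RonTK-/- group (-0.31, 85 below 0). It was highest in array 3 of the 7-week RonTK+/+ group (0.25, 4 below 0), array 1 of the 6-week RonTK+/+ group (0.23, 6 below 0) and array 2 of the 7-week RonTK-/- group (0.22, 3 below 0). In the lowest array the medians of complexes I, II, III and V were -0.46, -0.35, -0.48 and -0.32, and that of complex IV was -0.17. In the highest they were 0.29, 0.34, 0.30 and 0.20, and that of complex IV was 0.16. The median SD within groups was 0.216 over the members and 0.132 over all genes.

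**Figure D4:**
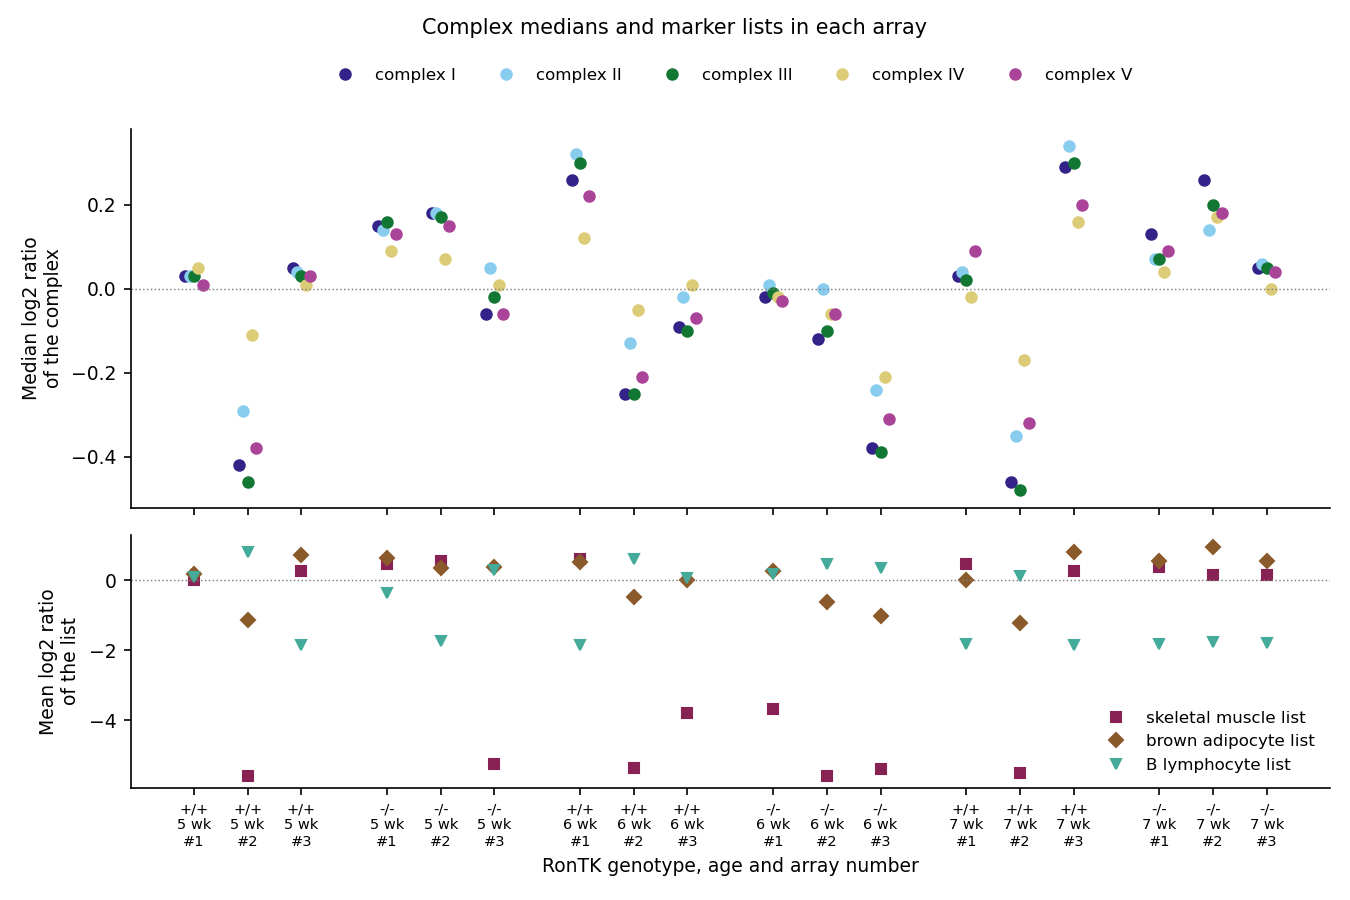
Above, the median log2 ratio of the members of complexes I to V in each of the 18 arrays; below, the mean log2 ratio of the skeletal muscle, brown adipocyte and B lymphocyte lists in the same arrays. The complexes are lowest in array 2 of the 5-week and 7-week RonTK+/+ groups and array 3 of the 6-week RonTK-/- group, where the muscle and the brown adipocyte lists are both low.

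Among the 8 arrays low in muscle the members were lowest where brown adipocyte transcripts were lowest. The 3 arrays with the lowest members had the lowest brown adipocyte means, -1.23, -1.15 and -1.03, and muscle means of -5.51, -5.59 and -5.38. Array 3 of the 5-week RonTK-/- group had a like muscle mean, -5.25, but a brown adipocyte mean of 0.38, and its members' median was -0.03. Array 2 of the 6-week RonTK-/- group, with a muscle mean of -5.58 and a brown mean of -0.61, had -0.08, and array 2 of the 6-week RonTK+/+ group, with -5.37 and -0.49, had -0.21. The remaining arrays of the 8 had brown means of 0.27 and 0.00 and members' medians of -0.02 and -0.07. The comparison with the brown adipocyte list was made after these values were seen.

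**Figure D5:**
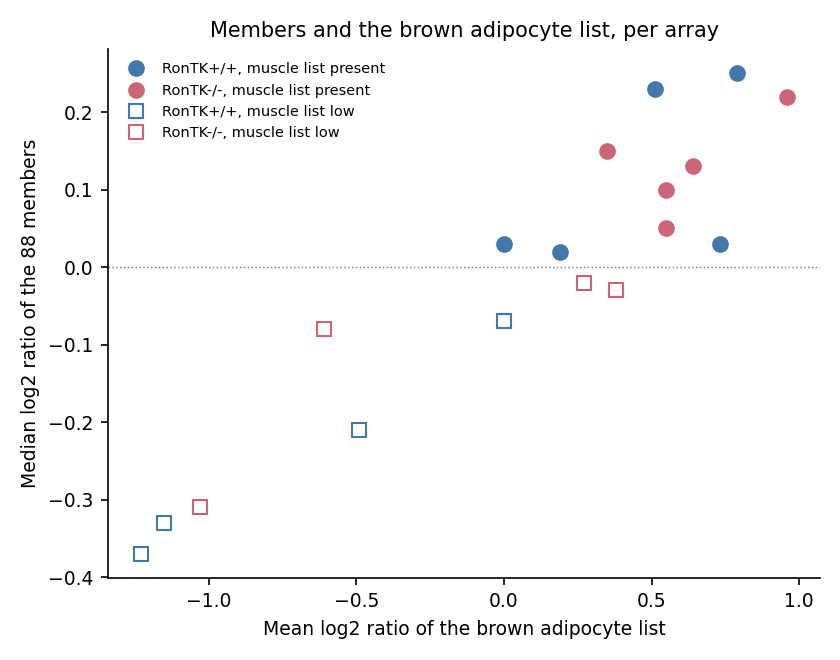
Median log2 ratio of the 88 members against the mean log2 ratio of the brown adipocyte list in each array; filled circles are the 10 arrays with muscle transcripts, open squares the 8 low in them, and colour gives the genotype. Among the open squares the members run from -0.37 at a brown adipocyte mean of -1.23 to -0.02 at 0.27.

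With both lists in the fit, fewer members followed the muscle list. On it 28 members had called positive slopes (9.27% of all genes) and 1, Cox8a, a called negative one (-0.056 ± 0.016, SE, adjusted p = 0.027; 10.7% of all genes). Of the 28, 13 were in complex I and 9 in complex V, with 3 assembly factors, 2 in complex IV, 1 in complex III and 0 in complex II. The largest were Cox6a2, Atp5g1 (0.266 ± 0.025, SE), Ndufaf5 (0.130 ± 0.021, SE) and Ndufaf6 (0.121 ± 0.021, SE). On the brown adipocyte list, beside the muscle list, 13 members had called positive slopes (2.62% of all genes) and 0 negative ones (0.269%). An unadjusted p under 0.05 was seen in 65 members (73.9%, beside 18.7% of all genes). The 13 called were 8 of complex I, 3 of complex III and 2 of complex IV, with Ndufa3 (0.241 ± 0.044, SE, adjusted p = 0.013), Ndufb8 (0.366 ± 0.068, SE) and Ndufab1 (0.315 ± 0.061, SE), the acyl carrier protein, first by p. Leaving out 1 array moved the 13 to between 0 (without array 3 of the 5-week RonTK-/- or of the 7-week RonTK+/+ group) and 35 (without array 3 of the 5-week RonTK+/+ group), and with array weights it was 0. Other cell type lists also followed the brown adipocyte list beside the muscle list: 6 of 12 white adipocyte and 2 of 10 endothelial genes had called positive slopes. In the lists of luminal and basal epithelium, B and T lymphocytes, macrophages, epidermis and hair, and fibroblasts 0 genes were called.

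The members with the largest muscle slopes were not those with the largest brown adipocyte slopes. Atp5g1 had -0.35 ± 0.10 (SE, adjusted p = 0.0846) on the brown adipocyte list and Cox6a2 -0.291 ± 0.206 (SE, adjusted p = 0.487), while Cox6a1, flat on the muscle list, had 0.272 ± 0.072 (SE, adjusted p = 0.0632). None of these 3 was called. Ndufs5 (0.371 ± 0.084, SE) and Ndufv1 (0.367 ± 0.081, SE) had the largest slopes, both called. In complex V limma called 0 of 17 members on the brown adipocyte list (10 had an unadjusted p under 0.05), with a median of 0.110, against 0.222 in complex I, 0.202 in complex II, 0.250 in complex III and 0.157 in complex IV. Outside the rule, Cox7a1 (1.00 ± 0.181, SE) and Cox8b (0.691 ± 0.117, SE) were called.

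Other genes of mitochondria were followed in lists. Over all genes, 15.4% had called positive slopes on the muscle list and 15.5% called negative ones. On the muscle list, 12 of 17 genes of the citric acid cycle had called positive slopes, led by Mdh2 (0.084) and Idh3a (0.161), and 17 of 34 assembly factors outside the rule did, led by Uqcc2 (0.116), which acts in complex III assembly. Of 10 carriers of ATP, protons and metabolites, 8 had called positive slopes and 1, Slc25a5, a called negative one (-0.04). The largest was Ckmt2, the mitochondrial creatine kinase of muscle (1.261), before Slc25a4, the ADP/ATP carrier of heart and muscle (0.227). In fatty acid oxidation 2 of 15 were called (13.3%), Acaa2 (0.099) and Hadha (0.087). With both lists in the fit, 13 of 15 had called positive slopes on the brown adipocyte list (86.7%, beside 2.62% of all genes). On the muscle list in that fit, 0 of 15 lay above 0, the median was -0.048 and 4 were called negative (beside 10.7% of all genes). Of 13 other subunits and carriers, among them Cox7a1, Cox8b and the member Atp5md, 5 were called on the muscle list, including cytochrome c (Cycs, 0.102). In glycolysis 11 of 15 were called, led by the muscle enzymes Pgam2 (1.162) and Eno3 (0.832), which is also in the muscle list.

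Of the regulators of mitochondrial biogenesis, 3 of 18 were called positive on the muscle list (16.7%, beside 15.4% of all genes) and 4 negative (beside 15.5% of all genes). Calls in both directions were thus found over all genes as well. The coactivator Ppargc1a, which is also in the brown adipocyte list, had 0.252 ± 0.053 (SE) and Twnk, the mitochondrial helicase, 0.057 ± 0.011 (SE). Gabpb1, a subunit of GABP, had -0.063 ± 0.011 (SE) and Polg, the mitochondrial DNA polymerase, -0.041 ± 0.008 (SE). For genotype over ages 0 genes of the lists of citric acid cycle, fatty acid oxidation, glycolysis, carriers, assembly factors, other subunits and regulators were called by limma, with medians between 0.026 and 0.107. There 1 gene of glycolysis (Hk1) and 1 regulator (Tfb1m) had an unadjusted p under 0.05, beside 3.77% of all genes.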

How the data were processed

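The deposited values are linear ratios. The labels give no unit, and this was read from the table, where every column has its median at 1 and 87.37% of probe sets have a RonTK+/+ median of 1. Per the labels' protocols, total RNA from whole glands, spun to remove fat, was amplified, labelled with biotin and put on Affymetrix mouse arrays. Probe set summary and background correction were not given in the sources used here. Signal over background is unknown, and the number of arrays limits the precision.

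The log2 of each deposited ratio was taken with no pseudocount, and a gene's value is the mean over its probe sets with 1 symbol in the platform annotation (9160 probe sets had none and 932 had several). All 88 member symbols matched a RefSeq table. Models were fitted to all 18 arrays and 18193 genes with limma 3.58.1 in R 4.3.3 (lmFit and eBayes, 6 group means, 12 residual and 1.94 prior degrees of freedom; 11 and 10 residual with 1 and 2 lists in the fit). P-values are two-sided and adjusted by Benjamini-Hochberg over all genes, with calls at an adjusted p under 0.05. Genotype was tested with moderated t, interaction and age with moderated F, with an age difference given as 7 minus 5 weeks. Figures used matplotlib 3.10.9. The code was tested on simulated data.

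Members, gene lists and tests were chosen with earlier results of these data known. Named genes follow a rule: Cox6a2, Cox6a1 and the smallest p per complex by array, the highest and lowest member per complex, isoform families, a set list of catalytic and other subunits, the 5 largest and 5 smallest slopes, and up to 4 genes of each other list by p. Ndufb10, Atp5j, Cox7c and the subunit c genes were given by array after their values were seen. Alternatives were the replicate block, other normalization, centring, pseudocount, filters, array weights, list covariates and left-out arrays. Same-numbered arrays of different groups had correlations from -0.83 to 0.87 (median 0.11). Those of arrays with other numbers ran from -0.9 to 0.89 (median -0.04), so the numbers were not taken as pairs.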

Additional observations from a re-analysis of the deposited data

How the results depend on the processing

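The count of 0 members called for genotype over ages held under every alternative run, the replicate block included, which also left 0 at each age, for the interaction and for age. It called 64 members on the muscle list (71 without it) and 6 on the brown adipocyte list (13 without it). With array weights the counts were 16, 1 and 6 at 5, 6 and 7 weeks, 9 for the interaction, 24 and 61 for age in RonTK+/+ and RonTK-/-, and 0 for the brown adipocyte slope. With 1 array left out, counts ran from 0 to 2 at 7 weeks, from 64 to 74 on the muscle list and from 0 to 35 on the brown adipocyte list. That last count was 26 with 0.1 added to the ratio and 20 without probe sets at the lowest value. On the muscle list it was 29 with the brown adipocyte list, 6 with the B lymphocyte list, and 0 within the 10 arrays and within the 8, where 4 and 2 residual degrees of freedom are left and the fits are too small to say whether a slope holds; 1 member was called for age in RonTK+/+ with the brown adipocyte list. The cause was not tested. Calls over all genes were not counted for the replicate block, the array weights, the left-out arrays or the B lymphocyte list. Nor were they counted with 0.1 added, without probe sets at the lowest value, or for age with the brown adipocyte list. Those counts therefore cannot be set against a background.

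These values changed sign, none of them called. With the brown adipocyte list the genotype difference of Cox6a2 was -0.62 and that of Sdhb -0.04, and the muscle slopes were -0.044 for Cox6a1, -0.018 for Atp5g2, -0.004 for Cox7a2, -0.002 for Cox4i1, -0.012 for Sdha and 0.016 for Cox7c. Cox8a had 0.005 with the B lymphocyte list, and Atp5g2 had -0.005 without probe sets ending in _x_at or _s_at. Within the 10 arrays with muscle transcripts the slopes were -1.072 for Cox6a1, -0.575 for Atp5g2, -0.198 for Atp5e, -0.143 for Atp5o, -0.14 for Ndufb10, -0.232 for Ndufaf6, -0.436 for Cox7a2, -0.407 for Cox4i1, -0.336 for Cox4i2, 0.085 for Cox7a2l, -0.223 for Atp5b, -0.074 for Sdha, -0.463 for Sdhb, -0.822 for Ndufv1, -0.312 for Ndufs1, -0.293 for Uqcrfs1, -0.851 for Uqcrc1 and -0.007 for Cox5a. Within the 8 arrays low in muscle they were -0.001 for Atp5g3 and 0.063 for Cox8a. With 1 array left out, the genotype difference ran from -0.43 to 0.68 for Cox6a2 and from -0.02 to 0.15 for Sdhb, and the muscle slope of Atp5g2 from -0.001 to 0.014.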
